A study of Mus musculus with 3 samples.

Results

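A set of 9 genes of the complement system and the acute-phase response, Lcn2, Saa3, Hp, Cp, Lbp, C3, C4b, Cfb and C1s1, was followed in RNAseq of cultured adult mouse cardiomyocytes (ACMs). They were chosen by gene symbol, and all 9 were found among the 56748 genes of the count table. The question was how strongly ACMs express these genes and whether their levels differ after exposure to cytokines that signal through the receptor subunit gp130. The vehicle library came from wild-type ACMs kept for 16 h in serum-free medium with 0.1% BSA, the IL-6 library from ACMs given 10 ng/mL of human IL-6, and the OSM library from ACMs given 10 ng/mL of mouse oncostatin M (OSM), each cytokine for 16 h. The cells came from hearts of mice 8 to 10 weeks old of both sexes. The cytokine cultures held 0.1% BSA as well. All cultures also contained BDM, an inhibitor of contraction, a supplement of insulin, transferrin and selenium, and a lipid supplement. RNA was pooled before the libraries were made, so that each condition has 1 library and no replicate, and no P-value is given. The IL-6 library is known from the sample labels alone, which give human IL-6 on mouse cells.

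The acute-phase response is the change in secreted plasma proteins that follows infection or injury, and it is best known from the liver, where IL-6, OSM and related cytokines act through gp130, JAK kinases and STAT3, often together with C/EBP factors and NF-kB. Complement is a cascade of plasma proteases and their targets in which the classical pathway starts with C1 and C4, the alternative pathway uses factor B, and all routes meet at C3. Cardiomyocytes are not the main source of any of these proteins, and the heart holds fibroblasts, macrophages and mesothelial cells that can make several of them.

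The promoters of the genes are shown first because STAT3, C/EBP factors and NF-kB are known regulators of acute-phase genes. RefSeq promoter sequences, from 250 bases before to 50 bases after the start site, were at hand for 5 of the 9 genes (Lcn2, Saa3, Cp, C3 and C1s1) in 7 entries, since Cp and C1s1 have more than 1 start site. The table is of build GRCm38.p6, and each entry was placed on GRCm39 by its single exact match. The letters of 3 motifs were searched on both strands. A STAT palindrome (TTCNNNGAA) occurs in 8.33% of 32534 promoters of this length, the NF-kB consensus in 4.53%, and a pair of C/EBP half-sites (TTNNGNAA) in 40.7%. The C/EBP letters were found in all 7 entries, and the STAT and NF-kB letters in none of them, which says only that these letters are not in these windows. The entries of Cp overlap each other, as do those of C1s1, so that the 7 are not independent. The following 30-base windows, read 5′ to 3′ on the strand of the gene, show 1 C/EBP match for each promoter entry of Lcn2, Cp, C3 and Saa3, with the match in capitals. For Lcn2 and the first start site of Cp, the capitals fit the motif when read on the opposite strand.
Lcn2, first base of the match 216 bases before the start site, chr2:32277949-32277978, minus strand: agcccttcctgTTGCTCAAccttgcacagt
Cp, first start site, 206 bases before it, chr3:20011001-20011030, plus strand: tttttgttagtTTTCTAAAaatcattaaca
Cp, second start site, 70 bases before it, chr3:20011332-20011361, plus strand: attagttactcTTTTGCAAcattaaattgt
C3, 45 bases before the start site, chr17:57535163-57535192, minus strand: aggaaactatgTTGCGAAAttttgggcagt
Saa3, 99 bases before the start site, chr7:46365181-46365210, minus strand: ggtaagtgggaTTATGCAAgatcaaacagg
The promoter entry of Saa3 held 4 C/EBP matches, that of C3 3, that of Lcn2 1, those of Cp 1 each and those of C1s1 2 and 1.

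The counts sum to 24939980 with vehicle, 26362446 with IL-6 and 30773001 with OSM, and 3 counts, the floor used here for a count of 0, correspond to 0.120, 0.114 and 0.0975 CPM, the usual count relative to the total of the library. Among genes with 1 to 20 counts, even numbers made up 61.4% to 63.5% of the values, against 50.3% to 51.6% of genes with over 1000 counts. The cause of this excess was not tested. Calls that are lost when all counts are halved, as if both reads of a pair had been counted, are named beside the result, and this alternative was chosen after seeing the data. The 10 cardiomyocyte markers, among them Myh6 and Tnnt2, had counts in all libraries, and they summed to 31268 to 37366 CPM. Summed levels of other cells were 42.9 to 45.5 CPM for 8 endothelial markers, 35.6 to 43.0 CPM for 6 smooth muscle and pericyte markers, and 5.46 to 6.37 CPM for 8 fibroblast markers. Single markers within the fibroblast and cardiomyocyte sums moved in different directions. Dcn had 49, 48 and 131 counts (vehicle, IL-6 and OSM) and Col1a2 14, 41 and 6. Ryr2 had 22606, 23555 and 9264 counts, Ttn 18901, 20398 and 7191, and Myl3 107960, 122573 and 210805. The 7 mesothelial markers had summed levels of 1.32 CPM (vehicle), 3.03 CPM (IL-6) and 1.10 CPM (OSM), with Msln at 1, 33 and 13 counts and Krt19 at 18, 20 and 0. The 8 macrophage markers had summed levels of 23.7 CPM (vehicle), 24.0 CPM (IL-6) and 54.4 CPM (OSM). The difference was carried mostly by Cd68, a lysosomal protein that is not confined to macrophages (382, 448 and 1419 counts). Csf1r had 187, 166 and 209 counts, Lyz2 13, 4 and 31, Mrc1 2, 14 and 8, and Adgre1 8, 0 and 6. The C1q chains C1qa, C1qb and C1qc had 0 in all libraries. The 9 neutrophil markers had 4 to 6 counts in all, the 7 lymphocyte markers 4 in each library and the 6 adipocyte markers 0 to 2. Socs3, the feedback inhibitor of gp130 signaling, had 670 counts with vehicle, 646 with IL-6 and 18194 with OSM.

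Of the 9 genes, 7 had at least 1 count, and Hp and Cfb had 0 in every library. Only Lcn2, Cp and C3 had more than 16 counts in any library. A log2 fold change here is the log2 ratio of counts scaled by TMM factors, bounded by a 95% Clopper-Pearson interval, and a gene was called higher or lower where the whole interval lay beyond 2-fold. Genes with at least 10 counts in the pair of libraries were compared, which left 4 of the 9 genes in each comparison. Between the OSM and vehicle libraries 2 of the 4, Lcn2 and Lbp, were called higher and 0 lower, where 3.74% of the 15537 compared genes were called higher and 5.43% lower. Lbp passed the minimum through the OSM library alone, so that this count is no measure of how often the 9 genes moved. Between the IL-6 and vehicle libraries 0 of 4 were called, against 1.77% higher and 1.74% lower of 15472 genes. Between OSM and IL-6, 1 of 4 was called higher, Lcn2, against 4.24% higher and 5.42% lower of 15544 genes. With the counts halved, 1 of 4 was called higher with OSM against vehicle (2.15% of all compared genes higher, 3.2% lower), 0 with IL-6 against vehicle (0.31% and 0.472%) and 1 with OSM against IL-6 (2.33% and 3.03%). The OSM and IL-6 comparisons share the vehicle library and are not independent of each other. In these bulk samples, a change in the share of cells of a type and a change in RNA per cell cannot be told apart.

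**Figure D1:**
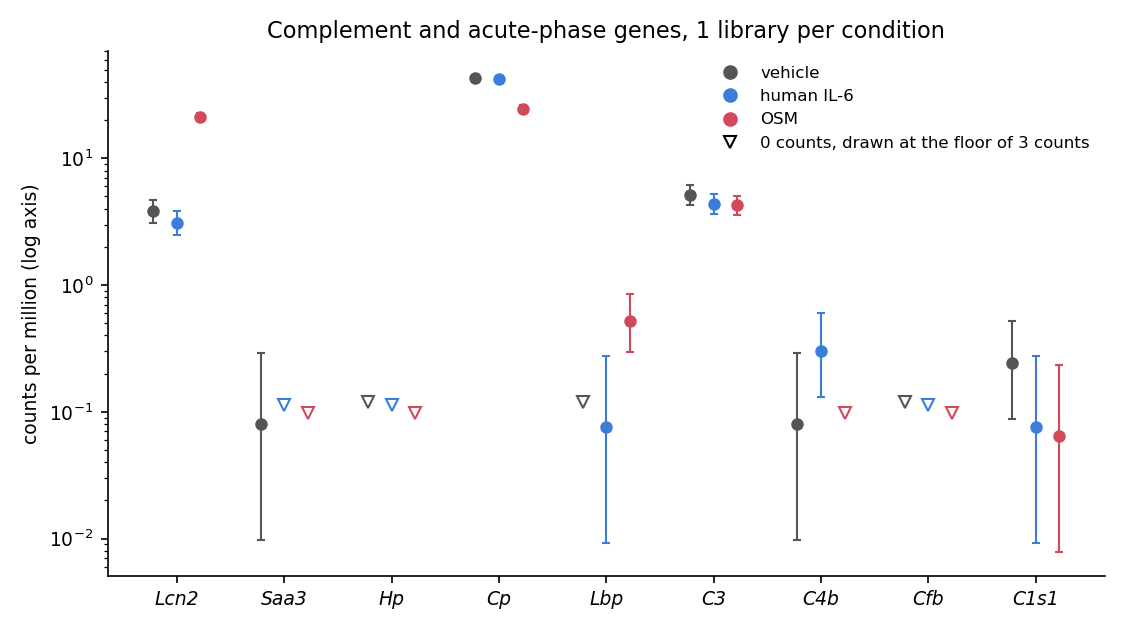
Level of the 9 genes in CPM, on a log axis, in the vehicle (grey), IL-6 (blue) and OSM (red) libraries, 1 library per condition. Points are the values, bars the 95% Poisson intervals of the count, and open triangles mark 0 counts and are drawn at the floor of 3 counts. Lcn2 stood at 21.2 CPM with OSM against 3.81 with vehicle, Cp at 24.5 against 43.0, and C3 between 4.26 and 5.13 in the 3 libraries.

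Lcn2 encodes lipocalin 2, a small secreted protein that binds iron-carrying siderophores of bacteria and is a classical acute-phase protein. The gene (ENSMUSG00000026822) lies on the minus strand of chr2:32274645-32278264 in GRCm39 and has 6 exons in its canonical transcript. It had 95 counts with vehicle, 82 with IL-6 and 651 with OSM, which is 3.81 CPM (95% Poisson interval 3.08 to 4.66), 3.11 CPM (2.47 to 3.86) and 21.2 CPM (19.6 to 22.8). The vehicle and IL-6 intervals overlapped, and the OSM interval lay above both. OSM-treated ACMs had 5.80-fold more Lcn2 than vehicle-treated ACMs, a log2 fold change of 2.54 (2.22 to 2.86). Against the IL-6 library the difference was 7.20-fold, a log2 fold change of 2.85 (2.51 to 3.20). IL-6 against vehicle gave −0.31 (−0.76 to 0.13), so that a rise beyond 0.13 with IL-6 lies outside the counting interval. With the counts halved the OSM interval widened to between 2.10 and 3.02 and Lcn2 was still called. The call was lost in edgeR's exact test with an assumed coefficient of variation of 0.4 between libraries, and the spread between replicates is not known here.

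By fpkm, which is the count per length and per library, Lcn2 went from rank 8551 of 21970 protein-coding genes with vehicle to rank 4112 with OSM. Neutrophils are a well-known source of lipocalin 2. Of the 9 neutrophil markers, S100a9, Csf3r, Retnlg, Ly6g, Mpo and Elane were at 0 throughout. S100a8 had 2, 0 and 2 counts, the granule protein gene Ltf had 4, 0 and 3, and Camp had counts with IL-6 alone, 4 in all. Macrophages make lipocalin 2 too. The summed macrophage level was higher in the OSM library, mostly through Cd68, as given above. Lyz2 had 13, 4 and 31 counts, Mrc1 2, 14 and 8, and Adgre1 8, 0 and 6. The part of either cell type in the Lcn2 difference was not tested. The protein-coding genes whose levels, centred on the log2 scale, lay nearest to those of Lcn2 over the 3 libraries were Bcl3, a nuclear member of the IkB family, at a distance of 0.0547, and Plekhg2, at 0.0552. Bcl3 had 118 counts with vehicle, 100 with IL-6 and 767 with OSM, and Plekhg2 had 49, 43 and 354. With 3 points among 10698 genes searched, such a likeness is a description.

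The receptors of lipocalin 2 were at the limit of the data. Slc22a17, a cell surface receptor for it, had 4 counts with vehicle and 7 with each cytokine, and Lrp2, the endocytic receptor megalin, had 0 throughout. Mmp9, a metalloproteinase listed here among the partners and receptors of the acute-phase proteins, had 0, 4 and 10 counts. With OSM it was 2.82-fold higher than the floor of 3 counts with vehicle. The lower end of its counting interval was at a log2 of 0.92, and Mmp9 was not called.

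Cp encodes ceruloplasmin, the copper-carrying ferroxidase of plasma, which oxidizes iron as it leaves cells through ferroportin. The gene (ENSMUSG00000003617, plus strand of chr3:20011218-20063309, 19 exons) had the highest CPM of the 9 genes in each library. It had 1072 counts with vehicle, 1112 with IL-6 and 754 with OSM, or 43.0 CPM (40.4 to 45.6), 42.2 CPM (39.7 to 44.7) and 24.5 CPM (22.8 to 26.3). The vehicle and IL-6 intervals overlapped almost fully, and the OSM interval lay below them. The log2 fold change with OSM was −0.75 (−0.89 to −0.61) against vehicle, 1.68-fold lower, and −0.70 (−0.84 to −0.57) against IL-6. Both intervals lay below 0 and neither reached 2-fold, so Cp was not called in either comparison. IL-6 against vehicle gave −0.047 (−0.17 to 0.075).

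Gene length moved with the OSM fold changes, and this bears on Cp. Cp is 9566 bases long in the deposited annotation, and the 500 protein-coding genes nearest to it in length, among those averaging at least 100 counts, had a median log2 fold change of −0.37 between OSM and vehicle. Cp lay −0.38 from that median. Lcn2, with 2623 bases, lay in a range of lengths with a median of 0.26 and stood 2.27 above it. C3, with 5143 bases, had a median of −0.045 around it. What sets the length trend was not tested. The genes nearest to Cp in pattern were Utp20, at a distance of 0.00305, and Zfp597, at 0.00440, with 1351, 1402 and 948 and with 406, 420 and 286 counts.

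**Figure D2:**
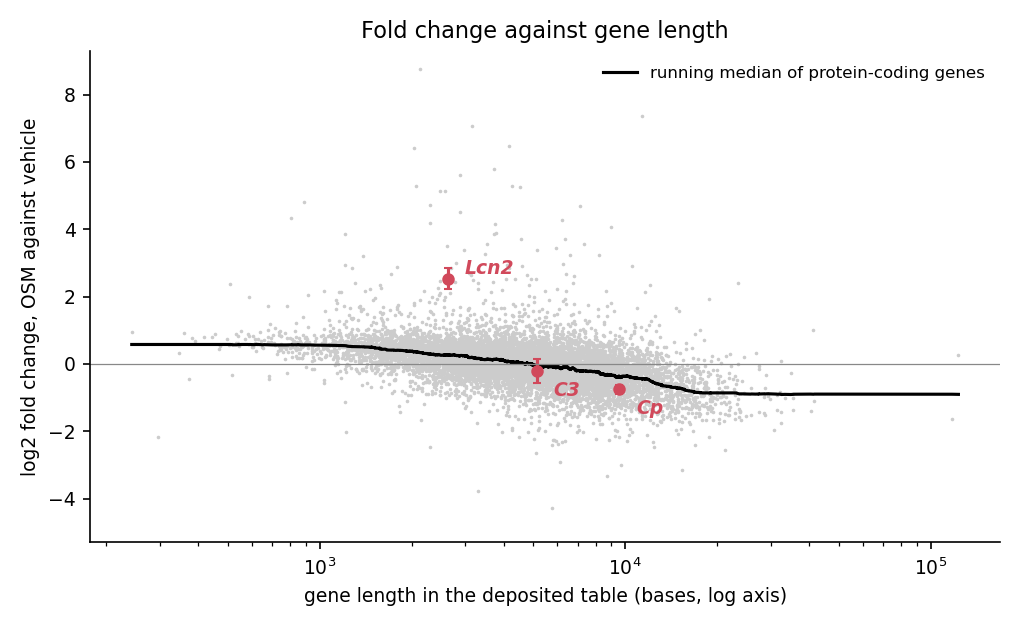
Log2 fold change between the OSM and vehicle libraries against the gene length given in the deposited table (bases, log axis) for protein-coding genes averaging at least 100 counts (grey points). The black line is the running median over 500 genes, and red points are Lcn2, Cp and C3 with 95% counting intervals. Lcn2 stood 2.27 above the line, and Cp lay −0.38 from it, where the line itself was at −0.37.

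The partners of ceruloplasmin in iron export and heme handling were well counted. Slc40a1, which encodes ferroportin, had 1825 counts with vehicle, 2221 with IL-6 and 3406 with OSM, a log2 fold change with OSM of 0.66 (0.58 to 0.74) that was not called. Hephaestin (Heph), the membrane-bound relative of ceruloplasmin, had 12, 2 and 10 counts. Haptoglobin, encoded by Hp, binds free hemoglobin, and Hp (ENSMUSG00000031722, minus strand of chr8:110301760-110305804) had 0 counts in every library, below 0.0975 CPM with OSM if 3 counts are allowed. Its receptor Cd163 also had 0. Hmox1, the enzyme that opens the heme ring, had 21824, 22097 and 52131 counts, and its log2 fold change of 1.01 (0.99 to 1.04) with OSM against vehicle touched the 2-fold line and was not called, while the 1.10 (1.07 to 1.12) against IL-6 was. Hmox1 is a short gene, and against genes of its length it stood 0.67 higher with OSM than with IL-6, which ends that call.

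Lbp encodes lipopolysaccharide-binding protein, which hands bacterial lipopolysaccharide to CD14 and TLR4. The gene (ENSMUSG00000016024, plus strand of chr2:158148413-158174772, 15 exons) had 0 counts with vehicle, 2 with IL-6 and 16 with OSM, which is 0.520 CPM with OSM (0.297 to 0.844). OSM was the sole library with more than 3 counts. Against the floor of 3 counts with vehicle, Lbp was 4.51-fold higher with OSM. The lower end of the counting interval was at a log2 of 1.71, so that Lbp was called. With the counts halved the lower end fell to 0.53 and the call was lost. Against the 2 counts of the IL-6 library the log2 fold change was 2.86 (0.77 to 6.02) and was not called. In fpkm, Lbp with OSM was at 0.111 and ranked 11744 of 21970 protein-coding genes, so that this difference was between a level at the limit of detection and a low one.

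Of the genes that receive bacterial signals, Tlr4, Tlr2, Cd14 and Ly96 were looked at, and none was called between OSM and vehicle. Of all compared genes 3.74% were called higher and 5.43% lower. Tlr4 had 816 counts with vehicle, 980 with IL-6 and 681 with OSM, a log2 fold change with OSM of −0.50 (−0.65 to −0.35). Tlr2, the receptor for bacterial lipoproteins, had 210, 154 and 105 counts and a log2 fold change of −1.24 (−1.59 to −0.90). Against genes of its length Tlr2 stood at −1.47. With the length trend removed its whole interval lies beyond 2-fold, so that it would be called lower. Cd14 had 8, 22 and 18 counts, and Ly96, the partner of TLR4 at the surface, had 58, 87 and 54.

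Saa3 encodes serum amyloid A3, an apolipoprotein of inflammation made outside the liver. Saa3 (ENSMUSG00000040026, minus strand of chr7:46361422-46365124) had 2 counts with vehicle and 0 with IL-6 and OSM, and no fold is given because all libraries lay at or under 3 counts. The other serum amyloid genes, Saa1, Saa2 and Saa4, had 0 in every library, so that no reads were assigned to a close relative in place of Saa3. Fpr2, a receptor for serum amyloid A, also had 0 throughout. Scarb1, the HDL receptor that takes up serum amyloid A, had 415, 493 and 1163 counts, and its log2 fold change with OSM of 1.25 (1.08 to 1.41) was the 1 call among the 12 compared partners and receptors of these proteins, against 3.74% of all compared genes called higher.

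C3 encodes the component at which all complement pathways meet. It lies on the minus strand of chr17:57510970-57535136 (ENSMUSG00000024164) and has 41 exons. It had 128 counts with vehicle, 115 with IL-6 and 131 with OSM, or 5.13 CPM (4.28 to 6.10), 4.36 CPM (3.60 to 5.24) and 4.26 CPM (3.56 to 5.05). All 3 intervals overlapped. The log2 fold change was −0.21 (−0.57 to 0.15) for OSM against vehicle, −0.25 (−0.63 to 0.12) for IL-6 against vehicle and 0.046 (−0.33 to 0.42) for OSM against IL-6. These intervals leave out a 2-fold change in either direction as far as counting error goes. The nearest genes in pattern were Prdm9, at a distance of 0.00478, and Emcn, an endothelial marker, at 0.00837, but with differences of this size between the libraries the pattern of C3 lies within counting error. Fibroblasts and macrophages make C3 in the heart, and the markers of these cells were present at the levels given above, so the part of other cells in the 4.26 to 5.13 CPM was not tested.

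The classical pathway genes were close to absent from the counts. C1s1, which encodes the protease C1s of the C1 complex (ENSMUSG00000038521, minus strand of chr6:124507304-124519318), had 6 counts with vehicle and 2 with each cytokine. Its paralog C1s2 had 0, 0 and 2, and the transcript Gm16567 overlaps 16.6% of the exonic bases of C1s1 on the other strand. C4b, which encodes complement C4 (ENSMUSG00000073418, minus strand of chr17:34947354-34962856), had 2 counts with vehicle, 8 with IL-6 and 0 with OSM. IL-6 was the sole library above 3 counts, and the log2 fold change against vehicle was 1.90 (−0.42 to 5.17) and was not called. Of the canonical C4b transcript, 27.0% is matched at 97% identity or more elsewhere, 16.7% in the paralog C4a, which had 0, 0 and 5 counts, so that reads of the pair could have been lost or moved between them.

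Cfb encodes factor B, the protease of the alternative pathway, and its 0 counts cannot be read as a lack of expression. The gene (ENSMUSG00000090231, minus strand of chr17:35075350-35081494) shares 78.6% of the 2857 exonic bases in its span with Gm20547, a transcript on the same strand that runs on from the neighbouring C2 gene, and Gm20547 also had 0 counts in every library. Nelfe, on the other strand, overlaps it as well in GENCODE M39, and 467 bases (16.3%) of the span belong to no other gene. featureCounts by default leaves out reads that fall on more than 1 gene, and which setting was used is not known from the sources at hand. C2, the classical-pathway counterpart of factor B and its neighbour, had 1 count with vehicle, 14 with IL-6 and 15 with OSM, a log2 fold change with OSM of 3.67 (0.96 to 9.06) that was not called. In this pair C2 reached the minimum through the OSM library alone. Its own overlap with Gm20547 was not measured, so that reads of C2 could have been left out too.

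Compared per length, the order of the expressed genes depended on the library. By the deposited fpkm with vehicle, Cp stood at 4.43 (4.17 to 4.70), Lcn2 at 1.43 (1.16 to 1.75) and C3 at 0.984 (0.821 to 1.17), and the intervals of Lcn2 and C3 met. With OSM, Lcn2 was first at 8.31 (7.68 to 8.97), then Cp at 2.64 (2.45 to 2.83) and C3 at 0.853 (0.713 to 1.01), and no neighbours overlapped. The other genes lay at or below 0.111 fpkm. The deposited length of Lcn2, 2623 bases, counts every annotated exon, whereas its canonical transcript has 915 bases. For Cp the lengths are 9566 and 4157 bases, and for C3 they are 5143 and 5158. Over the canonical length, Lcn2 would stand at 4.10 fpkm with vehicle and 23.8 with OSM, Cp at 10.2 and 6.07, and C3 at 0.981 and 0.850, which keeps the order in both libraries.

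The remainder of the complement system was read from whole lists. Of 25 other complement components, 15 had 0 counts in all libraries, among them C1qa, C1qb and C1qc. Of the 6 compared between OSM and vehicle 0 were called, against 3.74% higher and 5.43% lower of all compared genes. At such shares, 0 calls among so few genes says little about complement. The best counted was Masp1, a protease of the lectin pathway, with 230 counts with vehicle, 227 with IL-6 and 190 with OSM and a log2 fold change with OSM of −0.52 (−0.80 to −0.23). Masp1 is 9833 bases long, and at the 9816 bases of Col3a1 the length trend between OSM and vehicle stood at −0.36. C8g, a chain of the membrane attack complex, had 43, 87 and 57 counts, and Cfp, which encodes properdin, had 15, 11 and 31. Between IL-6 and vehicle 0 of 7 components were called, against 1.77% higher and 1.74% lower of all compared genes.

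Regulators hold complement in check on the surface of the body's own cells or in plasma. Of 16 regulators, 5 had 0 counts in all libraries and 8 were compared, and 1 was called higher with OSM and 0 lower, against 3.74% and 5.43% of all compared genes. The call was Clu, which encodes clusterin, a secreted chaperone that blocks the membrane attack complex. Clu had 18393 counts with vehicle, 19975 with IL-6 and 76987 with OSM, a 3.54-fold difference with a log2 fold change of 1.82 (1.80 to 1.85). This call, too, was lost at an assumed coefficient of variation of 0.4. The next best counted were C1qbp, a mitochondrial protein that also binds C1q, with 4235, 4205 and 5768 counts, Cr1l, the membrane regulator Crry, with 1688, 1743 and 1553, and Cd59a, the membrane inhibitor of the attack complex, with 1389, 1611 and 1540. None of these 3 was called. Between IL-6 and vehicle 0 of 8 were called, against 1.77% higher and 1.74% lower of all compared genes.

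Among 8 complement receptors, 3 were compared between OSM and vehicle and 0 were called, against 3.74% higher and 5.43% lower of all compared genes. Cd93, a receptor of endothelial cells once described as a C1q receptor, had 128 counts with vehicle, 174 with IL-6 and 62 with OSM, with −1.29 (−1.75 to −0.84) as its log2 fold change after OSM. Against IL-6 it was called lower with OSM, at −1.63 (−2.07 to −1.20), where 5.42% of all compared genes were. C3ar1, the receptor for the fragment C3a, had 0, 14 and 6 counts. It was the 1 call of 4 between IL-6 and vehicle, where 1.77% of all compared genes were called higher. Against the floor with vehicle it was 4.35-fold higher, with the lower end of the counting interval at a log2 of 1.63. It reached the minimum count through the IL-6 library alone, and the call was lost with the counts halved.

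Of 41 other acute-phase genes, 22 had 0 counts in all libraries and 30 had at most 3 in each. Of the 9 compared between OSM and vehicle, 5 were called higher and 0 lower, against the 3.74% and 5.43% of all compared genes. The median log2 fold change over the 9 was 1.98 beside 0.00459 for all genes. Hamp, with 2 counts with vehicle and 18 with OSM, reached the minimum through the OSM library alone and was not called. Against the 0 counts with IL-6, Hamp was called higher with OSM, where 4.24% of all compared genes were. The lower end of the interval was at a log2 of 1.99, and the call was lost with the counts halved. The list was drawn up with earlier results of these data known, so that the 5 calls and the median against vehicle are only a description. Steap4, a metalloreductase of iron and copper, had 18 counts with vehicle, 17 with IL-6 and 2849 with OSM, 134-fold higher with OSM, with a log2 fold change of 7.06 (6.40 to 7.82). Serpina3n, a secreted inhibitor of serine proteases, had 45, 90 and 2059 counts and a log2 fold change of 5.27 (4.85 to 5.73). Lrg1, a secreted leucine-rich glycoprotein, had 156, 176 and 829 counts and a log2 fold change of 2.17 (1.92 to 2.42), an interval that overlapped that of Lcn2. Against genes of its length Lrg1 stood at 1.66, where Lcn2 stood at 2.27. The metal-binding metallothioneins Mt2 and Mt1 had log2 fold changes of 1.98 (1.75 to 2.22) and 1.46 (1.43 to 1.49), Mt1 with 12390, 14706 and 40244 counts. With the length trend removed, 4 of the 9 were called, because Mt1, a short gene, lay 0.94 above genes of its length. Agt, the precursor of angiotensin, with 144, 117 and 174 counts, and F3, which encodes tissue factor, with 141, 215 and 145, were not called. Between IL-6 and vehicle 0 of 9 were called, against 1.77% higher and 1.74% lower of all compared genes.

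**Figure D3:**
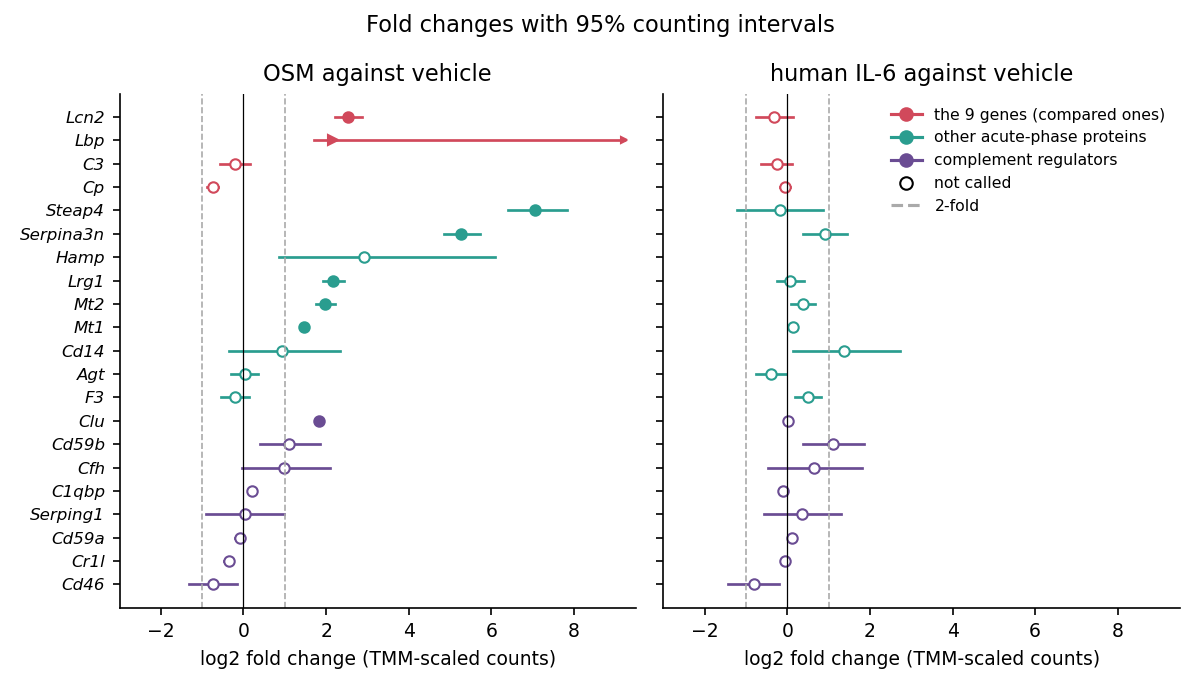
Log2 fold change of TMM-scaled counts for OSM against vehicle (left) and IL-6 against vehicle (right), with 95% counting intervals, for the compared genes among the 9 (red), the other acute-phase proteins (green) and the complement regulators (purple). Filled symbols were called, open symbols were not, dashed lines mark 2-fold, and the triangle of Lbp is its value against the floor of 3 counts. Genes are those compared between OSM and vehicle, with a gap where a gene had under 10 counts in the IL-6 pair. In the left panel Lcn2 at 2.54, Lbp, Clu at 1.82 and 5 other acute-phase genes were called higher, and no gene of the right panel was called.

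**Figure D4:**
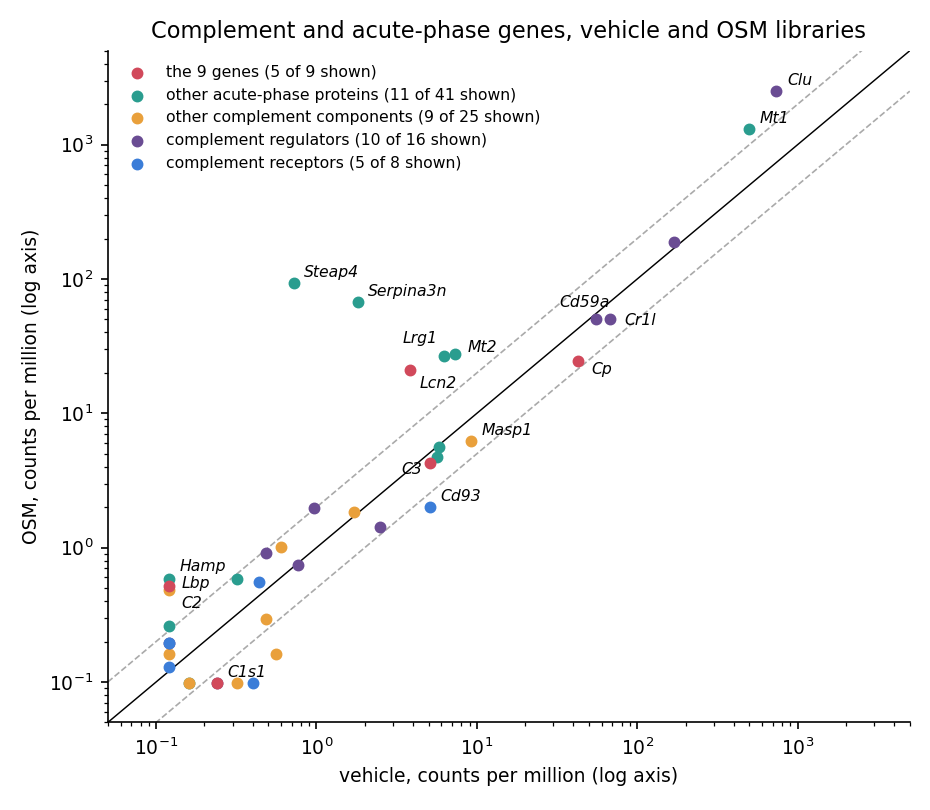
CPM with vehicle (horizontal, log axis) and OSM (vertical, log axis) for genes of the complement and acute-phase lists with more than 3 counts in either library, 1 point per gene. Values of 3 counts or fewer are drawn at the floor of 0.120 CPM with vehicle and 0.0975 CPM with OSM, the solid line is equality and dashed lines are 2-fold in CPM. Clu and Mt1 were the highest points, Steap4 and Serpina3n lay furthest above the line, and Cp lay below it.

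Of the 10 negative acute-phase genes, which fall in the liver during inflammation, 3 were compared and 0 were called in either comparison with vehicle. Of all compared genes, 3.74% were called higher and 5.43% lower with OSM, and 1.77% and 1.74% with IL-6. Trf, which encodes transferrin, had 14 counts with vehicle, 24 with IL-6 and 40 with OSM and a log2 fold change with OSM of 1.27 (0.36 to 2.27). Fetub had 7, 16 and 22 counts and Apoa2 4, 18 and 16. Alb, the gene of albumin, had 0 in every library.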

How the data were processed

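RNA of cultured wild-type ACMs was pooled by condition and sequenced as paired reads, 1 library each for vehicle, human IL-6 and OSM. The authors deposited unnormalized counts, whole numbers for each gene, and FPKM values made from them per gene length and library. According to the submitters' processing notes the tools were fastp, HISAT2 2.2.1, featureCounts 2.0.6 and edgeR 4.0.16, on mm39, while the study's methods give other versions of featureCounts and edgeR. The strand setting of the counting is not given in these sources, so that genes overlapping on opposite strands are uncertain. Conditions came from the sample labels, and 0 columns were left unmatched.

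From the counts, TMM factors were computed for each pair of libraries over all genes with edgeR 4.0.16 in R 4.3.3, and genes with at least 10 counts in the pair were compared. Intervals are 95% Clopper-Pearson intervals of a count given the sum of both, and Poisson intervals for single levels (Python 3.11.15, scipy 1.17.1). They hold counting error alone: without molecular identifiers, PCR copies of a molecule are counted as separate reads. The comparisons are of libraries, not of conditions. A count of 0 was replaced by a floor of 3 counts per library for fold changes, while the counting intervals used the count of 0 itself. The edgeR test of the study needs an assumed dispersion when there is 1 library per condition, and was used only as an alternative. The rule was tested on simulated data.

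The 9 genes and all gene lists were chosen with earlier results of these data known. Named are the 9 genes, up to 5 called genes of each list with OSM and up to 3 with IL-6, the 3 best counted of each list, overlapping genes and paralogs, Socs3 and nearest patterns (Euclidean distance of centred log2 CPM, at least 100 counts). Other genes, such as Tlr2, Slc22a17, Mmp9, Heph, Cd14, Ly96, C2 and Alb, were chosen after their values were seen. Of 56748 gene identifiers, 56017 were found in GENCODE M39 and 56016 of them overlapped their deposited position. Identity to other genes was searched with blastn 2.17.0. Alternatives were DESeq2 1.42.0 size factors, upper-quartile factors, library totals, FPKM ratios, other count minimums, a prior count of 2, other calling rules, removal of the length trend, and halved counts.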

Additional observations from a re-analysis of the deposited data

How the results depend on the processing

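Of 127 alternative values of counts of calls and of medians, 100 stayed within 1.5 times the reported count, or for a median within the typical counting error of its genes, and 27 moved. Of 105 alternative log2 fold changes of single genes, 102 stayed inside the reported counting interval and 3 moved. Part of the 102 could not move, so that their number overstates how stable the values are. Other count minimums leave a fold change as it is, and halving kept it where both libraries had counts. No called log2 fold change turned its sign (0 of them), and the uncalled value of C3 between OSM and IL-6 ranged from −0.035 to 0.076. Lcn2 ranged from 2.27 to 2.57 between OSM and vehicle. Of the 9 genes, calls between OSM and vehicle went from 2 to 1 with a minimum of 50 counts, with a 4-fold rule and with halved counts, and to 0 with an edgeR exact test at an assumed coefficient of variation of 0.4. The 0.4 test also gave 0 between OSM and IL-6, 0 regulators with OSM, 0 receptors with IL-6 and 2 other acute-phase genes with OSM. A coefficient of 0.2 gave 1 other complement component with OSM. The 4-fold rule gave 0 regulators with OSM, 0 receptors with IL-6 and 2 other acute-phase genes with OSM, and halved counts gave 0 receptors with IL-6. With point estimates alone, calls among the 9 genes became 1 between IL-6 and vehicle and 2 between OSM and IL-6. By the same rule, OSM gave 2 components, 2 regulators, 2 receptors and 3 negative acute-phase genes, and IL-6 gave 1 component, 1 regulator, 1 other acute-phase gene and 2 negative acute-phase genes. Point estimates called 23.2%, 13.3% and 22.8% of all genes compared in the OSM and vehicle, IL-6 and vehicle, and OSM and IL-6 pairs, and the 0.4 test 0.348%, 0.00646% and 0.495%. Over the 4 compared of the 9 genes, the median was 0.98 on the log2 scale between OSM and vehicle and 1.45 between OSM and IL-6. Over all compared genes it was 0.00459 and 0.00280. Lbp is in both sets of 4 and reached the minimum through the OSM library alone. The medians became −0.21 and 0.046 with a minimum of 50 counts, which leaves Lbp out. Without a minimum they became −0.21 and −0.048, because the set of genes changed. Between IL-6 and vehicle the median was −0.15, beside −0.0019 for all genes. The log2 fold change of Cp became −0.38 against vehicle and −0.34 against IL-6 with the length trend removed. That of Lbp against the floor became 1.17 with halved counts. Another scaling moved the median of all genes by less than 0.1. No paired analysis was possible because each condition has 1 library. Depth limits all statements on genes with few counts, which applies to 6 of the 9 genes.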
